A study of Mus musculus with 6 samples.

Results

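Transcripts of 10 genes known from Sertoli cells were followed across cultures of mouse spermatogonial stem cells of 3 kinds. The genes were chosen by name, and all 10 were measured by a probe set with exactly 1 gene symbol, among 18194 genes on the array. They are the transcription factor genes Gata4, Sox9 and Wt1, the hormone genes Amh and Inha, the junction gene Cldn11, the genes of secreted proteins Clu, Cst12 and Defb19, and the homeobox gene Rhox5. The cells were multipotent spermatogonial stem cells (mSSC), intermediate cells (iSSC) and unipotent germ-line stem cells (SSC), with 2 Affymetrix arrays of total RNA for each kind. All cultures came from testes of male ICR mice 3 to 5 days old. Clumps of early passages (0 to 1) or middle passages (9 to 10) were moved onto feeder layers of mitomycin-treated embryonic fibroblasts. The sample details used here do not show that every kind shared this support. Colonies that took a flat or embryonic-stem-like shape either stayed in germ stem cell medium or moved to KSR-mES medium, and the labels do not tie a passage or a medium to an array. They also do not tell if the 2 arrays of a kind stand for separate cultures or mice. The p-values therefore reflect nothing beyond the spread of these samples, which may be technical.

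Sertoli cells are the somatic cells of the seminiferous tubule that enclose and nourish germ cells. Sox9, Gata4 and Wt1 direct their formation in the fetal testis and act on the gene of anti-Müllerian hormone, which makes the Müllerian ducts regress. Sertoli cells also secrete inhibin, which restrains follicle-stimulating hormone, and join to each other by tight junctions that form the blood-testis barrier. In cultures of spermatogonia, somatic cells of the testis can be carried along. In a bulk sample fewer cells of a type and less RNA per cell cannot be told apart, and this holds for each difference given here.

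Values are deposited log2 signals of the RMA method (robust multi-array average), and differences are between group means on the log2 scale, with the SE of a limma fit over all 6 arrays. A gene was called where its p-value, adjusted by the Benjamini-Hochberg method over all 18194 genes, lay under 0.05. The median probe set of an array lay between 5.83 and 5.93 and the lower quartile between 4.23 and 4.38. A value below that quartile is near background, and no fold is given against it. In SSC replicate 1 the control probe sets read more at the 3' than at the 5' end, by 0.89 for actin and 2.73 for pyruvate carboxylase, whereas the other 5 arrays gave 0.12 to 0.61 and 0.88 to 1.32. The part of RNA quality in the results was not tested.

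In mSSC against SSC 8 of the 10 genes fell, Rhox5 rose and Amh was not called. In that comparison 18.8% of all genes were called, 8.22% as higher and 10.6% as lower. Lower genes made up 56.4% of these calls, or 36.2% with each array centred on its median. In iSSC against SSC 3 of the 10 genes fell, and of all genes 2.09% were called, 0.225% as higher and 1.87% as lower. In mSSC against iSSC 2 of the 10 fell and 1 rose, and of all genes 17.1% were called, 7.53% as higher and 9.6% as lower. Here lower genes made up 56.0% of calls, or 43.1% with the centring. The median difference over the 10 genes was -2.94 in mSSC against SSC (0.08 over all genes), -1.49 in iSSC against SSC (0.10) and -1.25 in mSSC against iSSC (-0.01). The mSSC and iSSC comparisons with SSC share the same SSC arrays, and the genes were picked with earlier results of these data known, so these counts are a description. Among the 10 the most negative difference in mSSC against SSC was that of Cst12 (-5.35), and the single positive call was that of Rhox5 (7.46). No direction of a called gene among the 10 turned under quantile normalization or the centring.

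**Figure D1:**
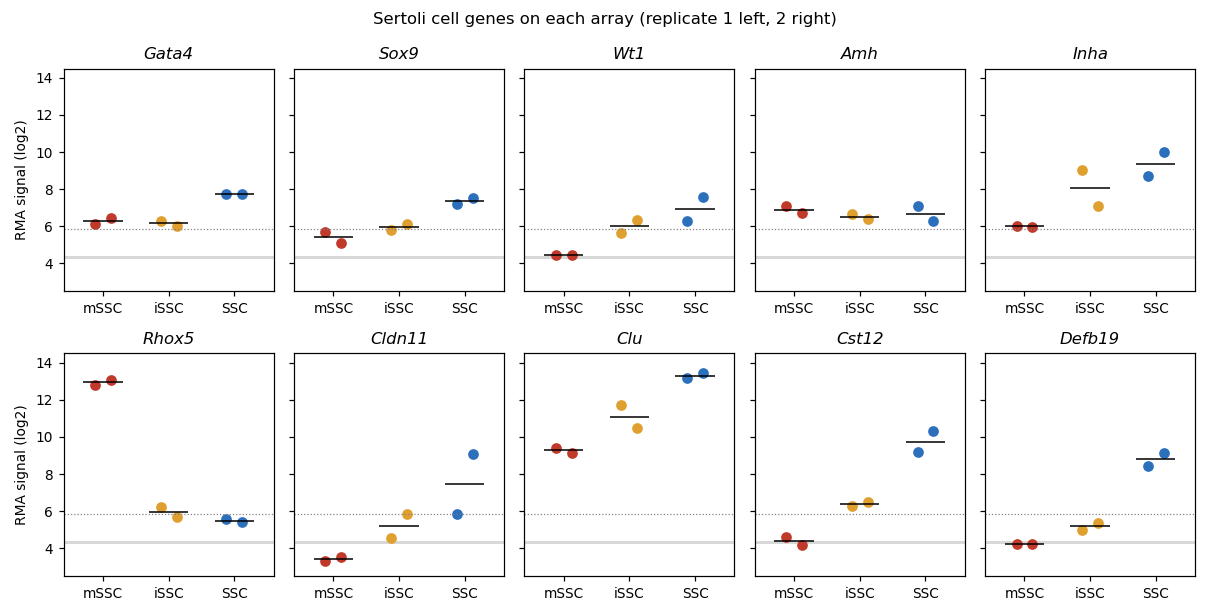
RMA signal (log2, vertical axis) of the 10 genes on the mSSC, iSSC and SSC arrays, with a point for each array and a bar at the mean of 2. The grey band is the range of the arrays' lower quartiles and the dotted line their mean median. Rhox5 is high in mSSC alone and Amh lies between 6.29 and 7.08. The other 8 genes have a lower mean in mSSC than in SSC, as do 44.1% of all genes.

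Gata4 encodes a zinc finger factor that is needed for testis formation and is also made in endoderm and heart. Its signal was 6.11 and 6.44 in mSSC, 6.30 and 6.03 in iSSC, and 7.75 and 7.74 in SSC. The mSSC and iSSC arrays overlapped, and all 4 lay below both SSC arrays. Gata4 fell 2.77-fold in mSSC (-1.47 ± 0.23, limma adjusted p = 0.0089) and 2.99-fold in iSSC (-1.58 ± 0.23, adjusted p = 0.033) against SSC. Between mSSC and iSSC the difference was 0.11 ± 0.23, with a 95% interval from -0.43 to 0.66. A second probe set of Gata4 read 4.40 and 4.74 in mSSC, 4.64 and 4.31 in iSSC, and 4.68 and 5.80 in SSC. It had the same sign against SSC but was not called (-0.67 ± 0.40 in mSSC, adjusted p = 0.36, and -0.76 ± 0.40 in iSSC, adjusted p = 0.46). Values of further probe sets come from a limma fit adjusted over all probe sets of the table.

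Sox9 encodes the HMG-box factor that turns the fetal gonad towards testis, and it is also active in cartilage. The main probe set read 5.71 and 5.10 in mSSC, 5.82 and 6.12 in iSSC, and 7.23 and 7.52 in SSC. The SSC arrays were the highest and did not overlap with either of the other kinds. Sox9 fell 3.90-fold in mSSC against SSC (-1.96 ± 0.28, adjusted p = 0.0075), while the iSSC minus SSC difference was -1.40 ± 0.28 (adjusted p = 0.071). The mSSC minus iSSC difference was -0.56 ± 0.28, with an interval from -1.24 to 0.12. Of the 2 other probe sets 1 had the same sign in mSSC (-0.87 ± 0.25, adjusted p = 0.093), and the other lay near background on all arrays and differed by 0.07 ± 0.20 (adjusted p = 0.87). With the 3 probe sets averaged, Sox9 was still called in mSSC against SSC, with a smaller difference (-0.92, adjusted p = 0.024).

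Wt1 encodes a zinc finger factor that maintains the Sertoli cell fate and is also found in the kidney. It read 4.43 and 4.47 in mSSC, 5.64 and 6.35 in iSSC, and 6.30 and 7.61 in SSC. Both mSSC arrays lay below the other 4, and the iSSC and SSC arrays overlapped. The mSSC values were close to the lower quartiles of their arrays, so no fold is given. Wt1 fell in mSSC against SSC (-2.51 ± 0.46, adjusted p = 0.015). The iSSC minus SSC difference was -0.96 ± 0.46 (adjusted p = 0.36) and the mSSC minus iSSC difference -1.55 ± 0.46 (adjusted p = 0.067). For Wt1 the iSSC minus SSC difference was -1.61 without SSC replicate 1, -0.31 without SSC replicate 2 and -0.60 without iSSC replicate 1.

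**Figure D2:**
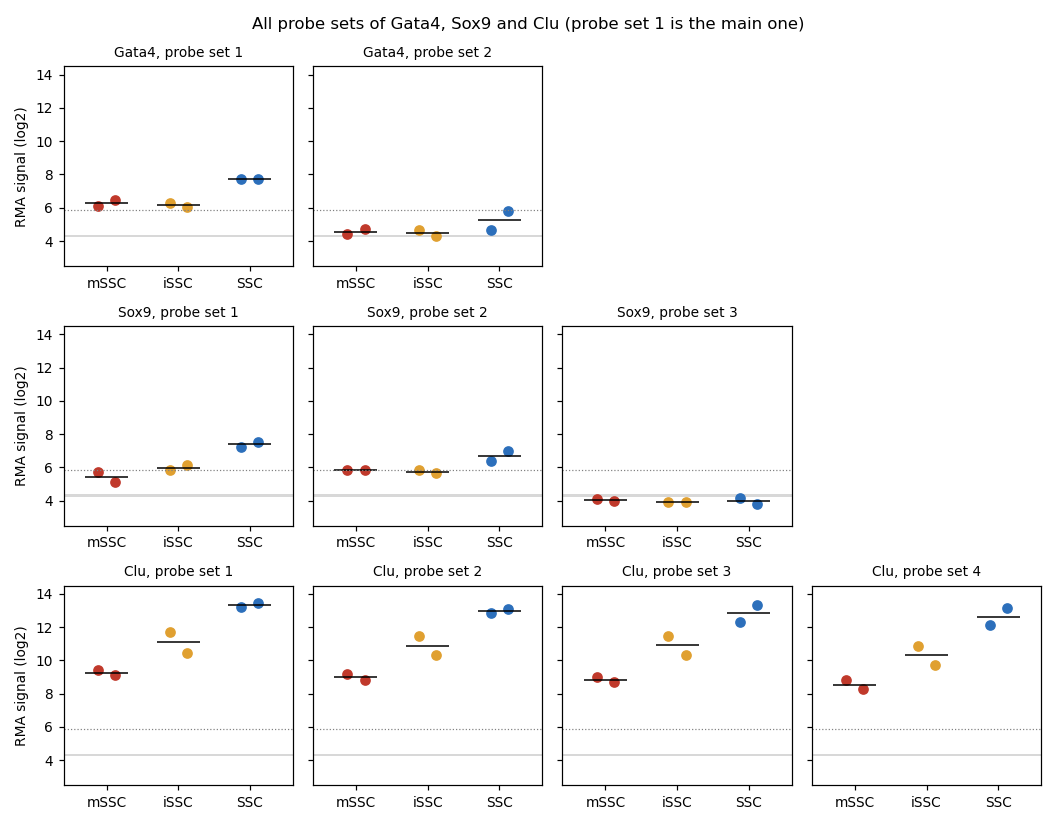
RMA signal (log2, vertical axis) of all probe sets of Gata4, Sox9 and Clu on the mSSC, iSSC and SSC arrays, with points for arrays, bars for means of 2, a grey band for the lower quartiles and a dotted line for the mean median. On each of the 4 Clu probe sets mSSC is lowest and SSC highest, and 1 of the 3 Sox9 probe sets lies between 3.80 and 4.16 on all arrays.

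Amh, the gene of anti-Müllerian hormone, is strongly active in Sertoli cells of the fetal and newborn testis. It read 7.08 and 6.72 in mSSC, 6.64 and 6.37 in iSSC, and 7.08 and 6.29 in SSC. The range of the SSC arrays held both iSSC arrays and 1 mSSC array. The mSSC minus SSC difference was 0.22 ± 0.32 (limma adjusted p = 0.68), with a 95% interval from -0.55 to 0.98. A change of about the size seen for Gata4 lies outside this interval, which rests on 1 probe set and 2 arrays a kind. Whether that probe set reads the Amh transcript alone was not tested. The iSSC minus SSC difference was -0.18 ± 0.32 (adjusted p = 0.84, interval from -0.94 to 0.59) and the mSSC minus iSSC difference 0.39 ± 0.32 (adjusted p = 0.48). The sign turned when 1 SSC array was left out: without SSC replicate 2 the mSSC minus SSC difference was -0.18, and without SSC replicate 1 the iSSC minus SSC difference was 0.22.

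Inha encodes the alpha subunit of inhibin, which Sertoli cells and, to a lesser degree, Leydig cells make. It read 6.00 and 5.98 in mSSC, 9.05 and 7.08 in iSSC, and 8.73 and 10.02 in SSC. The mSSC arrays were alike and the lowest, and the iSSC arrays differed widely (SD 1.39) and overlapped with SSC. Inha fell 10.4-fold in mSSC against SSC (-3.38 ± 0.69, adjusted p = 0.021). The iSSC minus SSC difference was -1.31 ± 0.69 (adjusted p = 0.41) and the mSSC minus iSSC difference -2.07 ± 0.69 (adjusted p = 0.092). Both depended on single arrays: the iSSC minus SSC difference of Inha was -2.30 without iSSC replicate 1, -0.32 without iSSC replicate 2 and -0.66 without SSC replicate 2. The mSSC minus iSSC difference was -1.09 without iSSC replicate 1 and -3.06 without iSSC replicate 2, where it was called (adjusted p = 0.049). The summed linear signal of 4 Leydig cell genes (Cyp11a1, Cyp17a1, Hsd3b1 and Star) was 289 and 272 in mSSC, 2039 and 223 in iSSC, and 2012 and 654 in SSC. In iSSC the array with more Inha was also the one with more Leydig signal, but in SSC it was the other one. The part of Leydig cells in the Inha values was not tested.

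Cldn11 encodes claudin 11, the strand-forming protein of Sertoli tight junctions, which also serves the myelin of the central nervous system. It read 3.32 and 3.54 in mSSC, 4.58 and 5.85 in iSSC, and 5.84 and 9.09 in SSC. The mSSC arrays were near background, and the SSC arrays differed from each other more than for any other of the 10 genes (SD 2.29). Cldn11 fell in mSSC against SSC (-4.04 ± 0.99, adjusted p = 0.037). The iSSC minus SSC difference was -2.25 ± 0.99 (adjusted p = 0.33) and the mSSC minus iSSC difference -1.78 ± 0.99 (adjusted p = 0.29). For Cldn11 the iSSC minus SSC difference was -3.87 without SSC replicate 1 and -0.63 without SSC replicate 2. The mSSC minus iSSC difference was -1.15 without iSSC replicate 2.

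Clu encodes clusterin, a secreted chaperone that is abundant in Sertoli cells and made by many other tissues. It read 9.41 and 9.14 in mSSC, 11.72 and 10.46 in iSSC, and 13.20 and 13.42 in SSC. The 3 kinds did not overlap, with iSSC between the others. Clu fell 16.4-fold in mSSC against SSC (-4.04 ± 0.41, adjusted p = 0.0027) and 3.52-fold in mSSC against iSSC (-1.82 ± 0.41, adjusted p = 0.030). The iSSC minus SSC difference of -2.22 ± 0.41 was not called (adjusted p = 0.056). Of 15 alternatives only 2 called it: a variance trend (adjusted p = 0.040) and brighter genes alone (adjusted p = 0.042). With each array left out in turn, this difference ranged from -2.85 to -1.59. All 4 probe sets were called lower in mSSC against SSC, with differences from -4.07 to -3.98.

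Cst12 encodes a testis protein of the cystatin family, whose classical members inhibit cysteine proteases. It read 4.60 and 4.19 in mSSC, 6.29 and 6.50 in iSSC, and 9.18 and 10.32 in SSC. The kinds did not overlap, and 1 of the 2 mSSC arrays lay below its lower quartile. Of the 10 genes Cst12 alone was called in all 3 comparisons. It fell in mSSC against SSC (-5.35 ± 0.39, adjusted p = 0.0011) and 10.2-fold in iSSC against SSC (-3.35 ± 0.39, adjusted p = 0.029). It also fell in mSSC against iSSC (-2.00 ± 0.39, adjusted p = 0.019).

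Defb19 encodes a beta-defensin, a family of small secreted antimicrobial peptides, that is expressed in the testis. It read 4.25 and 4.23 in mSSC, 5.01 and 5.38 in iSSC, and 8.42 and 9.16 in SSC. The mSSC arrays were near background, and all 4 mSSC and iSSC arrays lay more than 3 log2 units below both SSC arrays. Defb19 fell in mSSC (-4.55 ± 0.30, adjusted p = 0.00081) and 12.1-fold in iSSC (-3.59 ± 0.30, adjusted p = 0.021) against SSC. The mSSC minus iSSC difference was -0.96 ± 0.30 (adjusted p = 0.080).

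Rhox5, formerly Pem, is an X-linked homeobox gene that androgen activates in Sertoli cells. It is also expressed in embryonic stem cells and extraembryonic tissue. It read 12.82 and 13.07 in mSSC, 6.23 and 5.68 in iSSC, and 5.58 and 5.39 in SSC. The mSSC arrays stood far above the other 4, and iSSC lay slightly above SSC without overlap. Rhox5 rose 176-fold in mSSC against SSC (7.46 ± 0.26, adjusted p = 0.00021) and 127-fold in mSSC against iSSC (6.99 ± 0.26, adjusted p = 0.00026). The iSSC minus SSC difference was 0.47 ± 0.26 (adjusted p = 0.44).

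**Figure D3:**
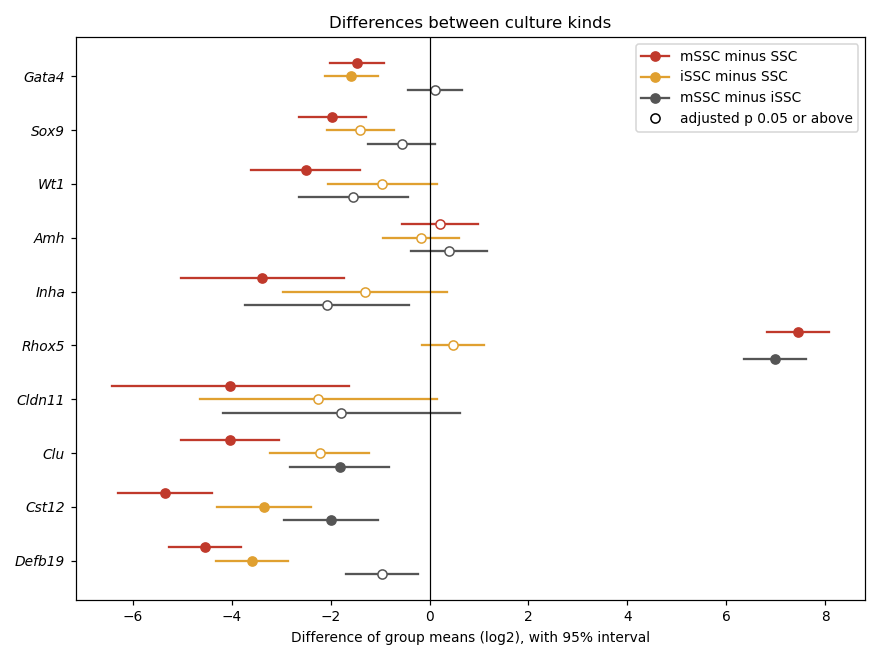
Differences of group means (log2, horizontal axis) of the 10 genes for mSSC minus SSC, iSSC minus SSC and mSSC minus iSSC, with points for the estimates and lines for 95% intervals of the limma fit. Filled points have an adjusted p under 0.05, which holds for 9 genes, 3 genes and 3 genes in these comparisons.

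The upstream sequences of Rhox5, which rose in mSSC against SSC, and of Cst12 and Cldn11, which fell, are shown. They were taken because a window ending at the gene start was available for them. Of the 10 genes 4 had a promoter window in the RefSeq table of build GRCm38.p6, and these 3 had one that ends at the annotated start of the gene. Each sequence holds the 250 bases before the start, 5' to 3' on the plus strand, at chrX:37754358-37754607 for Rhox5, chr2:148789115-148789364 for Cst12 and chr3:31149670-31149919 for Cldn11. Capitals mark matches, on either strand, to GATA (GATA factors), ACAAAG and AACAAT (SOX factors), AAGGTCA (the nuclear receptor SF-1) and AGAACA (a core of the androgen receptor's element).
Rhox5: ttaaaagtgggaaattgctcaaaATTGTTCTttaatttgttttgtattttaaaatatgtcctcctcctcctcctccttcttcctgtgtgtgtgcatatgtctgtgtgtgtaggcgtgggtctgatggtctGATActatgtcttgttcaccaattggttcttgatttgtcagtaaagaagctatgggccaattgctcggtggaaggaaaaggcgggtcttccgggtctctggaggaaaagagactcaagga
Cst12: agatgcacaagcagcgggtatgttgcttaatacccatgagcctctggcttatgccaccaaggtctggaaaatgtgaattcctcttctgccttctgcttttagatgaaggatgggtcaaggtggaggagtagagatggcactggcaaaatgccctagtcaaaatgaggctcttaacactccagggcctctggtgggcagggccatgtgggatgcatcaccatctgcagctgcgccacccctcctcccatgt
Cldn11: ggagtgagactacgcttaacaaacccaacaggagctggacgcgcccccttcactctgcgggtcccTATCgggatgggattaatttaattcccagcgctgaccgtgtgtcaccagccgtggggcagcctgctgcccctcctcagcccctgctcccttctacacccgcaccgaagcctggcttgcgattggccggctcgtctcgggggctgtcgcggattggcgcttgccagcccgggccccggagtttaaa
The Rhox5 window held a GATA match from base -120 to -117, and matches on the reverse strand to AACAAT (-227 to -222) and AGAACA (-225 to -220), which overlap. The Cldn11 window held 1 reverse match to GATA (-185 to -182), and these letters occurred in 0 places of the Cst12 window. Among 32851 promoters 53.6% held GATA in the same 250 bases, 16.5% ACAAAG, 9.42% AACAAT, 4.08% AAGGTCA and 16.1% AGAACA. The windows held 4 CpG dinucleotides in Rhox5, 2 in Cst12 and 19 in Cldn11, against a median of 6 over all promoters. A match is a description of the letters and not evidence of a binding site. The Rhox5 window lies at the outermost annotated start, 37754608, of a locus that extends to 37808878. Other starts of Rhox5 were not examined, and which start Sertoli cells or these cultures use was not tested.

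In the comparison of iSSC with SSC 9 of the 10 differences were below 0, against 38.5% of those of all genes. The 3 lower calls were those of Gata4, Cst12 and Defb19, where 1.87% of all genes were called lower. These calls were lost without SSC replicate 1, iSSC replicate 1 or iSSC replicate 2, along with the calls of all other genes. Such fits rest on fewer arrays, leave a lone array in a group and take its spread from the other kinds. Here and below, the loss of a call therefore does not by itself show that it rested on the array left out. With each array left out in turn, the iSSC minus SSC difference ranged from -1.71 to -1.45 for Gata4. It ranged from -3.92 to -2.78 for Cst12 and from -3.96 to -3.22 for Defb19. The Gata4 call was also lost without SSC replicate 2. The Cst12 and Gata4 calls were lost with the probe sets of each gene averaged (adjusted p = 0.050 and adjusted p = 0.12). Both were also lost with all probe sets fitted (adjusted p = 0.055 and adjusted p = 0.059). With the replicate number as a block Gata4 was not called (adjusted p = 0.057).

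Between mSSC and iSSC the genes called were Clu and Cst12, which fell, and Rhox5, which rose. The Rhox5 call held without each of the 6 arrays in turn. The Clu call was lost without mSSC replicate 1, mSSC replicate 2 or iSSC replicate 1 (adjusted p = 0.079, adjusted p = 0.11 and adjusted p = 0.12), and without iSSC replicate 1 its difference was -1.19. The Cst12 call was lost without mSSC replicate 2, iSSC replicate 1 or iSSC replicate 2 (adjusted p = 0.077, adjusted p = 0.10 and adjusted p = 0.12).

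In mSSC against SSC, Gata4, Sox9, Rhox5, Clu, Cst12 and Defb19 were called without each array in turn. Wt1 was not called without mSSC replicate 1 (adjusted p = 0.057) or mSSC replicate 2 (adjusted p = 0.051). Inha was not called without mSSC replicate 1 (adjusted p = 0.072), mSSC replicate 2 (adjusted p = 0.068) or SSC replicate 2 (adjusted p = 0.073). Cldn11 lost its call without either mSSC array or either iSSC array (adjusted p from 0.062 to 0.12), and without SSC replicate 2 its difference was -2.41.

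The 2 SSC arrays differed in these genes. In replicate 2 as against replicate 1 of SSC, 7 of the 10 genes were higher, with a median difference of 0.52, while 37.6% of all genes and 15 of the 33 further Sertoli cell genes were higher. Of the markers of other somatic cells, 0 of 10 macrophage, 1 of 10 fibroblast, 0 of 6 peritubular and 0 of 4 Leydig cell genes were higher in that array. Their medians were -0.67, -0.72, -1.30 and -1.40. Without SSC replicate 2 the median difference of the 10 genes was -2.13 in mSSC against SSC and -0.96 in iSSC against SSC, and without SSC replicate 1 it was -3.59 and -1.78.

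A wider set of 37 Sertoli cell genes, of which 33 were measured, was examined next. Of all genes 10.6% were called lower and 8.22% higher in mSSC against SSC. In this comparison 8 of the 33 fell, 2 rose and 23 did not pass, with a median of -0.61. When mSSC replicate 1 was left out, 4 fell. With each array centred on its median, which moves the median of all genes in this comparison by 0.26, 4 fell and 3 rose, and after quantile normalization 6 fell and 3 rose. Kitl, the ligand of the Kit receptor, fell to 6.81 and 6.50 in mSSC and 6.30 and 6.36 in iSSC, against 8.67 and 8.97 in SSC. Its mSSC minus SSC difference was -2.17 ± 0.23 (adjusted p = 0.0029) and its iSSC minus SSC difference -2.49 ± 0.23 (adjusted p = 0.021). Amhr2, the receptor of anti-Müllerian hormone, read 8.41 and 8.79 in mSSC, 7.18 and 7.17 in iSSC, and 9.68 and 9.48 in SSC, and was lowest in iSSC. It fell in iSSC against SSC (-2.41 ± 0.23, adjusted p = 0.021) and in mSSC against SSC (-0.98 ± 0.23, adjusted p = 0.031), and it was higher in mSSC than in iSSC (1.43 ± 0.23, adjusted p = 0.010). Kitl and Amhr2 were the 2 of 33 called in iSSC against SSC, where 2.09% of all genes were called. Both calls were lost without SSC replicate 1 or either iSSC array, as were those of all genes. In mSSC against iSSC 2 of the 33 fell (Aldh1a1 and Dmrt1) and 3 rose (Nr0b1, Amhr2 and Tsx). Of all genes 9.6% were called lower and 7.53% higher there, so these counts are near the share over all genes.

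The other lower genes of this set in mSSC were Dmrt1 (-3.11), Aldh1a1 (-8.51), Vim (-1.58), Shbg (-1.36), Dhh (-1.16) and Serpina5 (-2.49). Aldh1a1 (3.75 and 3.90) and Serpina5 (3.70 and 3.69) lay below the lower quartiles of the mSSC arrays, near background. This limits what the size of their fall can show. Dmrt1, a sex-determining factor of both Sertoli and germ cells, read 8.49 and 9.50 in mSSC, 12.15 and 12.10 in iSSC, and 12.13 and 12.07 in SSC. Dhh, the Hedgehog ligand of Sertoli cells, read 5.73 and 5.99 in mSSC, 6.03 and 6.26 in iSSC, and 6.70 and 7.35 in SSC. Its mSSC minus SSC difference was -1.16 ± 0.28 (adjusted p = 0.036). The genes that rose were Nr0b1 (7.12 ± 0.42, adjusted p = 0.00062), which is also a factor of the pluripotency network, and Tsx (2.52 ± 0.42, adjusted p = 0.011), an X-linked testis gene. Fshr, the receptor of follicle-stimulating hormone, lay below the array medians on all 6 arrays, at 5.27 and 5.29 in mSSC, 5.39 and 5.11 in iSSC, and 5.74 and 4.93 in SSC. Of 6 defining Sertoli genes (Sox9, Amh, Fshr, Dhh, Wt1 and Gata4) 4 fell in mSSC against SSC, and Amh and Fshr did not pass. Without either mSSC array 2 of the 6 fell, and 3 did under quantile normalization, the centring, averaged probe sets or the fit on 4 arrays. The name of the list thus describes where the genes are known to act, and these arrays do not show which cells held the transcripts.

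**Figure D4:**
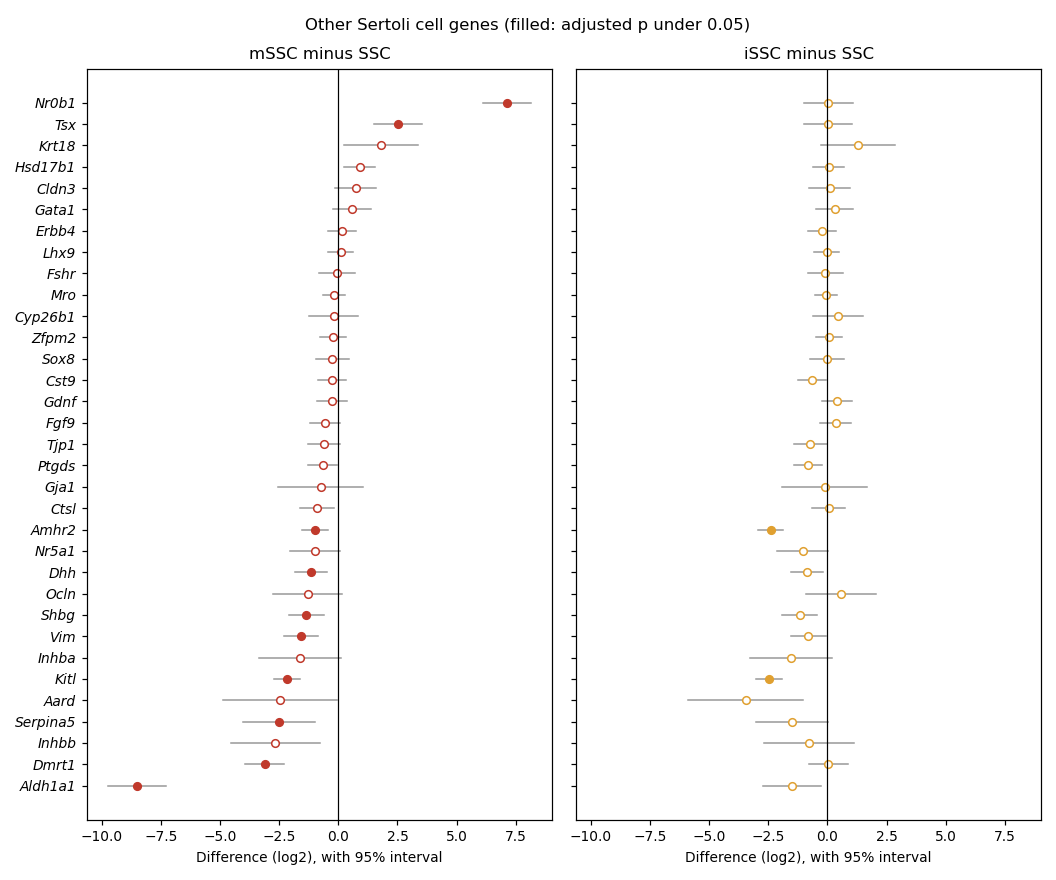
Differences of group means (log2, horizontal axis) of 33 further Sertoli cell genes in mSSC minus SSC and iSSC minus SSC, with points for the estimates, lines for 95% intervals and filled points for an adjusted p under 0.05. In mSSC minus SSC 8 filled points lie below 0 and 2 above, and in iSSC minus SSC the 2 filled points are Kitl and Amhr2.

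Relatives of Rhox5, Cst12 and Defb19 were read out from lists of their families. In mSSC against SSC 18.8% of all genes were called, which is the share to set beside the counts of these families. Of the Rhox homeobox cluster 4 of 13 genes were measured, and Rhox5 was the 1 called. Rhox6 read 7.76 and 6.63 in mSSC, 5.69 and 6.25 in iSSC, and 5.88 and 6.60 in SSC, with an mSSC minus SSC difference of 0.95 ± 0.45 (adjusted p = 0.20). Rhox9 differed by 0.52 ± 0.24 between mSSC and SSC (adjusted p = 0.18). Rhox13, which germ cells express, differed by 0.01 ± 0.43 (adjusted p = 0.99), with an interval from -1.01 to 1.04. Of 6 measured cystatin genes Cst12 and Cst3 fell in mSSC against SSC. Cst3, which encodes the widely secreted cystatin C, changed by -1.26 ± 0.21 (adjusted p = 0.012). Of 14 measured beta-defensin genes Defb19 fell and Defb42 rose in mSSC against SSC, a count near the share over all genes. Defb42 read 7.57 and 6.31 in mSSC, 4.45 and 4.17 in iSSC, and 4.11 and 4.73 in SSC (2.52 ± 0.44, adjusted p = 0.013).

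Markers of other cell types moved between the same samples. Of all genes 10.6% were called lower in mSSC and 1.87% in iSSC against SSC. Of 10 macrophage genes 10 fell in mSSC and 6 in iSSC against SSC. Their summed linear signal was 641 and 1288 in mSSC, 17956 and 10399 in iSSC, and 51171 and 36507 in SSC. C1qb, a complement chain of macrophages, read 4.11 and 4.14 in mSSC, 9.57 and 8.60 in iSSC, and 12.51 and 12.07 in SSC. Of 10 fibroblast genes 6 fell in mSSC and 1 in iSSC against SSC, with a summed signal of 8540 and 16728 in mSSC, 14926 and 19661 in iSSC, and 75537 and 48973 in SSC. Col1a1, a collagen chain of fibroblasts, read 7.32 and 9.17 in mSSC, 9.16 and 9.71 in iSSC, and 13.44 and 12.01 in SSC. Without SSC replicate 1, the array with the greater 3' excess, 2 of the 10 fibroblast genes fell in mSSC against SSC. Of 6 peritubular genes 3 fell in mSSC and 1 in iSSC against SSC, with a summed signal of 1335 and 1183 in mSSC, 2722 and 1838 in iSSC, and 22004 and 4188 in SSC. Without mSSC replicate 1, 1 peritubular gene fell in mSSC against SSC. Des, the desmin gene of muscle, differed the other way, at 9.38 and 7.91 in mSSC, 7.45 and 7.19 in iSSC, and 7.10 and 6.89 in SSC (mSSC minus SSC 1.65 ± 0.46, adjusted p = 0.0545). In mSSC against SSC 1 peritubular gene was called higher with the replicate block, among brighter genes, under quantile normalization or with the centring, and 2 were without mSSC replicate 2. In iSSC against SSC the counts of lower genes ranged from 0 to 6 (macrophage), 0 to 4 (fibroblast) and 0 to 3 (peritubular) with 1 array left out. The part of these cell types in the results on the 10 genes was not tested.

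Germ line and pluripotency markers were read out in the same way. Of 8 spermatogonial genes 8 fell in mSSC against SSC, where 10.6% of all genes were called lower. On the 4 arrays compared 6 fell, and 7 with the centring or averaged probe sets. The median difference of the spermatogonial genes in iSSC against SSC was 0.19. Of 6 pluripotency genes 6 rose in mSSC against SSC, where 8.22% of all genes were called higher. The 10 Sertoli cell genes averaged 6.37 and 6.29 in mSSC, 6.73 and 6.58 in iSSC, and 7.93 and 8.66 in SSC. The spermatogonial genes averaged 7.73 and 7.87 in mSSC, 11.26 and 11.14 in iSSC, and 11.01 and 11.14 in SSC. The mSSC means of the Sertoli cell genes include Rhox5, the gene that rose.

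**Figure D5:**
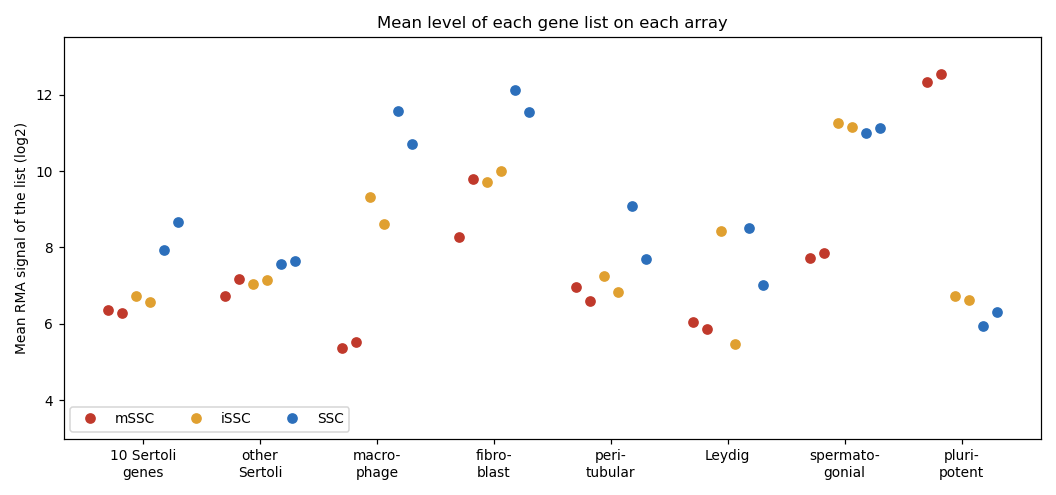
Mean RMA signal (log2, vertical axis) of the genes of each list on each of the 6 arrays, with mSSC, iSSC and SSC in that order from left to right within a list. Macrophage and Sertoli cell genes are highest on the SSC arrays, spermatogonial genes average 11.01 to 11.26 on the iSSC and SSC arrays, and pluripotency genes are highest in mSSC.

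For each gene the 3 genes with the nearest profile were sought, by the root mean square distance between the 6 values of a pair, each centred on its own mean. The distances are in log2 units, rest on the same 6 arrays and are descriptions. Cst12 and Defb19 were near each other (0.48): Cst12 was the nearest of all genes to Defb19, followed by Zfhx4 (0.49) and Aspn (0.50), and Defb19 came after Maf (0.46) and before Prss35 (0.59) in the order for Cst12. Rhox5 was nearest to Apela (0.27), which encodes a peptide hormone of embryonic stem cells, then to 1700019D03Rik (0.40) and Nr0b1 (0.43). Apela read 11.49 and 11.18 in mSSC, 5.12 and 4.53 in iSSC, and 3.99 and 3.86 in SSC, so it too was high in mSSC alone. Gata4 was nearest to Cnot6l (0.17), Eps15 (0.17) and Arfgef1 (0.20), Sox9 to Tlr3 (0.16), Gpr65 (0.19) and Rasa2 (0.20), and Wt1 to Fbn2 (0.28), Mxra7 (0.29) and Strn (0.30). Amh was nearest to Fcnb (0.032), S1pr5 (0.059) and Lrrc61 (0.064), and Inha to Fam90a1b (0.36), Tex11 (0.52) and Cd200r1 (0.53). Cldn11 was nearest to Gatm (0.46), Prss35 (0.62) and Zmat1 (0.66), and Clu to Gstm2 (0.38), Tlr13 (0.38) and Cd84 (0.40).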

How the data were processed

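Total RNA of 6 samples of cultured mouse cells, 2 each of mSSC, iSSC and SSC, was taken up in Trizol. Per the labels, 10 µg went into NuGEN amplification and biotin labelling. The deposited values are log2 signals that the authors made with RMA, per the submitters' processing notes (version not given in the labels). They were used as deposited, with 0 columns left out. Of 45101 probe sets 34958 had exactly 1 gene symbol in GEO's platform annotation, 932 had several and 9211 are unnamed here, and 34754 of the first matched RefSeq. For each of 18194 genes the probe set with the highest mean over 6 arrays was taken. A group means model over all 6 arrays was fitted with limma 3.58.1 in R 4.3.3 (lmFit and eBayes, 2-sided, no filter, no covariate) and was tested on simulated data. Intervals are 95% intervals of that fit, and precision is set by having 2 arrays a kind. No test was made over the 10 genes as a list.

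The members and the gene lists were chosen with earlier results of these data known. All 10 members are named. Of the lists of other Sertoli, Rhox, cystatin and beta-defensin genes the rule names up to 6 called genes a list and comparison by smallest p. It adds, from the Rhox, cystatin and beta-defensin lists, genes above the array median in a group. Of marker lists it names up to 3 genes, and of similar profiles the 3 nearest genes. Fshr, Dhh, Shbg and Serpina5 fall outside this rule and were named after their values were seen. Naming 4 Leydig cell genes also exceeds the rule, and Des was picked with its values known. Alternatives were a replicate block, only brighter genes, quantile normalization, median centring, averaging or fitting all probe sets, fits on 4 arrays, other variance models, and leaving out each array. Leaving out 1 array leaves a lone one, whose spread is then borrowed from the other kinds. The raw scans were not used here.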

Additional observations from a re-analysis of the deposited data

How the results depend on the processing

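With 2 arrays a kind, calls near the threshold can be lost when 1 array is left out, which also changes the estimate of spread. Signals near the lower quartile limit what mSSC levels can show. No direction of a called gene among the 10 turned under any alternative run. When each array was left out in turn, the count of all genes called ranged from 1966 to 3462 in mSSC against SSC, from 0 to 503 in iSSC against SSC and from 604 to 3724 in mSSC against iSSC. The count among the 10 ranged from 6 to 9, from 0 to 3 and from 1 to 6. Their median difference ranged from -3.59 to -2.13, from -1.78 to -0.96 and from -1.26 to -0.96. Differences that were not called changed sign: Amh ranged from -0.18 to 0.61 in mSSC against SSC and from -0.57 to 0.22 in iSSC against SSC, and Gata4 from -0.054 to 0.28 in mSSC against iSSC.

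The same-numbered arrays share only a number, and their deviations from the group means correlated at 0.07 to 0.17 across genes. With the replicate number as a block 148 genes were called in iSSC against SSC, in place of 381, and 2 of the 10 in place of 3, while 9 of the 10 were called for mSSC over SSC and 4 for mSSC over iSSC. Among brighter genes, which keep 3 of the 10, 3 were called in mSSC against SSC and 1 in iSSC against SSC, and the mSSC minus iSSC median was -1.82. With arrays centred on their median it was -1.07. That centring shifted the median of all genes by 0.26 for mSSC over SSC and by 0.18 for mSSC over iSSC. It made 36.2% and 43.1% of calls lower, against 56.4% and 56.0% before. In iSSC against SSC 29 genes and 1 of the 10 were called with probe sets averaged, and 44 and 1 with all probe sets fitted. On the 4 arrays compared, 1966 genes were called in mSSC against SSC, and 6 of the 10 in mSSC against iSSC. The unmoderated test called 14 genes for mSSC over SSC (4696 at an unadjusted p under 0.05), 2 for iSSC over SSC (2257) and 26 for mSSC over iSSC (4263). Of the 10 it called 0 in each of these (8, 5 and 3 at an unadjusted p under 0.05). It has 3 residual degrees of freedom, and the cause of the other differences was not tested.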
